A study of Homo sapiens with 8 samples.

Results

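Nucleoporins and nuclear transport receptors are described here in KYSE150, a line grown from a human esophageal squamous cell carcinoma, as read counts of poly(A) RNA-seq. Members were the rows named NUP, KPNA, KPNB, XPO, IPO or TNPO with a number (or XPOT), together with CSE1L, RANBP2, TPR, AAAS, SEH1L, POM121, NDC1 and RAE1, that had a count of at least 10 in 4 or more of the 8 libraries. Of the 16082 genes deposited, 55 matched these names and 53 met the count minimum: 29 nucleoporins or nucleoporin-like genes and 24 transport receptors. The groups were 4 control samples and 4 shHNRNPC samples, in which a short hairpin RNA lowers HNRNPC, a protein that binds uridine-rich stretches of new transcripts in the nucleus. The labels give both groups the same cell line and no further treatment, and they say nothing of a control hairpin, of clones or of separate cultures, so the p-values rest on a sample-to-sample spread that could be purely technical.

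KPNA7, an embryonic importin alpha, did not meet the minimum, with counts of 5, 3, 13 and 9 in the control libraries and 0, 0, 4 and 0 in the shHNRNPC libraries, and NUP210L had at most 1 count in any library. No member lay close to it: the lowest were KPNA5, with 170 to 268 counts, and NUP62CL, with 225 to 339 counts. All 53 members passed the filter of the test.

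Nuclear pores are large rings of nucleoporins set in the nuclear envelope. A scaffold of outer and inner rings is anchored by membrane proteins, and nucleoporins rich in phenylalanine-glycine repeats fill the channel through which receptors pass with their cargo. Importins bind cargo in the cytoplasm and release it when they meet the GTP-bound form of the small GTPase RAN in the nucleus, whereas exportins bind cargo together with RAN-GTP and release it outside. Classical import uses an importin alpha adaptor on importin beta, and the exportin CSE1L returns importin alpha to the cytoplasm. Pores are built both after mitosis and in interphase, and several nucleoporins and receptors also act at the mitotic spindle and kinetochore.

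HNRNPC, the target of the hairpin, stood at 601, 590, 571 and 587 CPM in control replicates 1 to 4 and at 33.8, 32.9, 32.5 and 36.5 CPM in shHNRNPC replicates 1 to 4, so every knockdown library was depleted. CPM (counts per unit of library size) are scaled by library total and TMM factor. Library totals were 28323403 to 34913500 counts. All 8 epithelial markers were found, with a summed level of 2906 to 2997 CPM in the control and 5137 to 5281 CPM in the shHNRNPC libraries. Of these 6 rose and 2 fell, namely TP63 from 176 to 129 CPM (-0.45) and KRT14 from 8.35 to 4.89 CPM (-0.77). Fibroblast markers summed to 3.65 to 3.88 and 8.38 to 9.5 CPM (6 of 6 found, 2 rose, mostly COL1A1), endothelial markers to 2.03 to 2.45 and 1.21 to 1.84 CPM (3 of 3 found, 1 fell), and the 2 of 5 leukocyte markers found to 0.0312 to 0.207 and 0.241 to 0.391 CPM. LUM, the other fibroblast marker called higher, went from a mean of 0.197 CPM in the control to 0.597 CPM in the shHNRNPC libraries. DCN, which defines many fibroblasts, had 1 count in shHNRNPC replicate 1 and 0 in every other library. The part of these markers in the results was not tested.

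The knockdown went with many small changes of pore and receptor transcripts, more of them upward. By edgeR's quasi-likelihood test with Benjamini-Hochberg adjustment over 12001 genes, 30 of the 53 members rose and 11 fell at an adjusted p below 0.05, which is 77.4% called against a background of 77.3% of all genes tested. The share called was therefore that of genes at large. The split was not: 56.6% of the members rose and 20.8% fell, against 38.7% and 38.6% of all genes tested, and the median log2 fold change was 0.10 against -0.01. Of the 9773 tested genes within the members' range of mean expression, 42.3% rose and 38.9% fell. Large changes were rare, since 3 members (KPNA2, CSE1L and IPO11) rose at least 1.5-fold and 0 fell by that much, or 5.66% against 21.9% of all genes tested (9.61% rose and 12.2% fell by that much) and 16.9% of those in the same expression range. For 37 members (69.8%, background 70.8%) the CPM ranges were apart, 26 with shHNRNPC higher and 11 with it lower, against 35.4% of all genes tested in each direction. These counts are a description of the members and carry no test of the list.

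**Figure D1:**
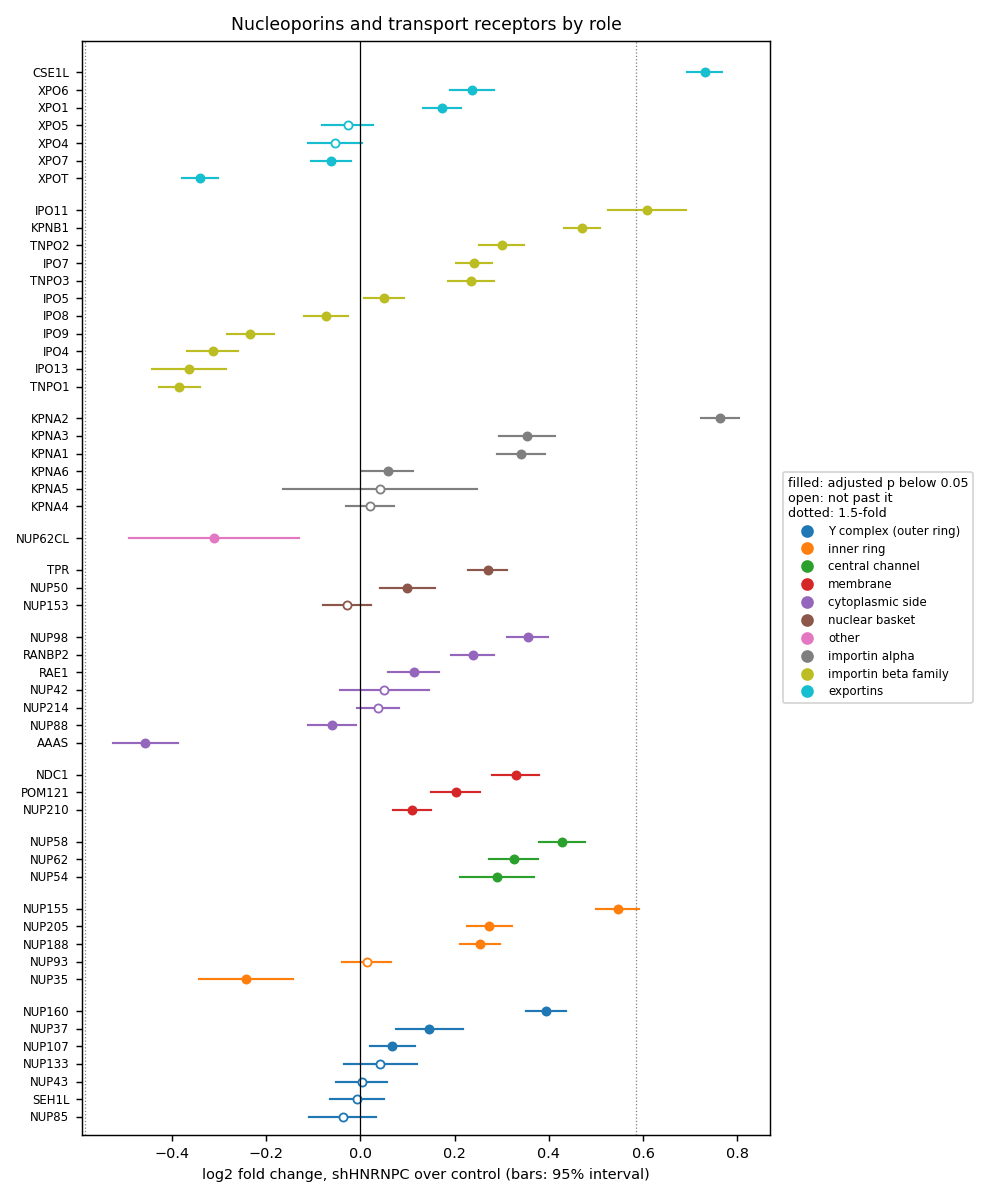
Log2 fold change (shHNRNPC over control, x axis) of the 53 members by role (colour), with 95% intervals from edgeR's quasi-likelihood fit on 4 and 4 libraries; filled points passed an adjusted p of 0.05 and dotted lines mark 1.5-fold. KPNA2, CSE1L and IPO11 lie past the upper dotted line, and AAAS, TNPO1, IPO13 and XPOT are the lowest points.

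Of 6 importin alpha adaptors, 4 rose and 0 fell (66.7% called, against 77.3% of all genes tested). KPNA2, the importin alpha of proliferating cells, changed most of all members. Its level was 251, 252, 253 and 252 CPM in control replicates 1 to 4 and 427, 430, 435 and 418 CPM in shHNRNPC replicates 1 to 4. The groups were far apart, with 170% of the control mean after knockdown (log2 fold change 0.76, SE 0.020, edgeR adjusted p = 1.49e-42). CSE1L, the exportin that recycles importin alpha, moved by nearly the same factor. It stood at 420, 420, 428 and 435 CPM in the control libraries and at 711, 708, 707 and 702 CPM in the shHNRNPC libraries (0.73, SE 0.0186, edgeR adjusted p = 2.73e-43). The ratio of KPNA2 to CSE1L CPM was 0.592 ± 0.00854 (SD, n = 4) in the control and 0.605 ± 0.0084 in the shHNRNPC libraries, and the 2 sets of ratios overlapped.

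KPNA2 lies on chromosome 17 from 68035735 to 68046854 on the plus strand and CSE1L on chromosome 20 from 49046312 to 49096949 on the plus strand (RefSeq, GRCh38.p14), and 8.06% of the 75-base words of the KPNA2 transcript recur in transcripts of other genes, mainly KPNA2 pseudogenes. Their promoters are shown because this adaptor and its export receptor rose together, beside that of XPOT, the most abundant receptor that fell. Each window runs 5′ to 3′ on the gene's strand from 250 bases before the RefSeq start to 50 after it, at chr17:68035485-68035784, chr20:49046062-49046361 and chr12:64404142-64404441, all on the plus strand. Capitals mark matches to the motifs named after the sequences.
KPNA2: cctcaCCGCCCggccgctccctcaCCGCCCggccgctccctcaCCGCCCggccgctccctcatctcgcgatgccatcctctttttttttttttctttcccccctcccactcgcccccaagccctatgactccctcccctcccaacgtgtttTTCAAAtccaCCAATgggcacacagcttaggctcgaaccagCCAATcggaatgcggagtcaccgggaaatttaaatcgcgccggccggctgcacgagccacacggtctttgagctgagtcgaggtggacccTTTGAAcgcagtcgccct
CSE1L: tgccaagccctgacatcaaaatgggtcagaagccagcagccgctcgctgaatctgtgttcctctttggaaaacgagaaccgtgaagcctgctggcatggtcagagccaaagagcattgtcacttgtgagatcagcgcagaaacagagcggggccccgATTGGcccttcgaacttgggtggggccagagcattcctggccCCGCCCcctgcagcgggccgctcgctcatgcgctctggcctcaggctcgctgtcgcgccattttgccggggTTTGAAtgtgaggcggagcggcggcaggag
XPOT: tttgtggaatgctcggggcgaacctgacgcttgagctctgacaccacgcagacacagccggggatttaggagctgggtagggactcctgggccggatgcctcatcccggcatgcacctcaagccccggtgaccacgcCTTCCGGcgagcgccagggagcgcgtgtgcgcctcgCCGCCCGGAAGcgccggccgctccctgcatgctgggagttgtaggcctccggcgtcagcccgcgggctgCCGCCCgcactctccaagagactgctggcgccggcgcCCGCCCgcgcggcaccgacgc

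The motifs were searched by letters on both strands: the CCAAT box (CCAAT), the E-box (CACGTG), the NRF1 palindrome, ETS (CCGGAAG), E2F (TTCCCGC), the CHR of late cell-cycle promoters (TTTGAA), the GC box (GGGCGG), the C/EBP-ATF element (TGATGNAA) and YY1 (AAGATGGCG). A GC box and an ETS match overlap in the XPOT window. RefSeq promoters of this length were matched for 48 of the 53 members. CCAAT matches lie at -89 and -58 in the KPNA2 window and at -93 in the CSE1L window, and TTTGAA matches at -99 and 33 in the first and at 21 in the second, counting the start as 1. The XPOT window holds matches to ETS and the GC box only. Other members that fell do hold the letters seen in KPNA2 and CSE1L. NUP35 has CCAAT letters at -24 and TTTGAA at -35, and TNPO1 has CCAAT at -39. TTTGAA was found in 10 of 48 member windows (20.8%), against 15.4% of all 27305 promoters and 9.62% of those of tested genes; these 10 members had a median log2 fold change of 0.30 and the other 38 a median of 0.06. The CCAAT box went the other way: the 22 members with it had a median of 0.05 and those without it a median of 0.22. Gaps in the direction of TTTGAA were also seen for the E-box (0.25 against 0.09, 6 members) and YY1 (0.26 against 0.11, 4 members). The GC box had 0.17 against 0.10, and ETS, E2F and NRF1 hardly differed. E2F, NRF1 and YY1 letters were in 18.8%, 6.25% and 8.33% of member windows. Their shares among promoters of tested genes were 10.4%, 2.4% and 4.1%. The part of any motif in the changes was not tested. ETS letters were in 31.2% of member windows, in 10.7% of all promoters and in 1978 of the 9890 promoters of tested genes. GC boxes were in 52.1% of member windows, above the 44.6% of all promoters and below the 70.5% of those of tested genes. A match is a run of letters and shows no binding.

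The remaining importin alpha genes divided within their subfamilies. KPNA3 stood at 82.3, 83.7, 81.1 and 82.4 CPM in the control libraries and 108, 104, 102 and 108 CPM in the shHNRNPC libraries (0.35, edgeR adjusted p = 3.47e-17). Its closest relative KPNA4 was at 135, 139, 137 and 132 CPM and at 139, 137, 136 and 140 CPM, with overlapping groups and a 95% interval of -0.03 to 0.07 for its log2 fold change (edgeR adjusted p = 0.45). The KPNA3 to KPNA4 ratio of CPM moved from 0.606 ± 0.0125 (SD, n = 4) to 0.763 ± 0.0112 without overlap.

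In the other subfamily KPNA1 went from 112, 116, 114 and 111 CPM to 145, 141, 146 and 141 CPM (0.34), with the groups well apart. KPNA6 went from 119, 114, 122 and 117 CPM to 120, 123, 121 and 126 CPM. The KPNA6 groups overlapped and its small rise (0.06, edgeR adjusted p = 0.0463) was lost in 12 of 15 alternatives, among them leaving out control replicates 1, 2 and 4 and shHNRNPC replicates 2 and 4 in turn (edgeR adjusted p = 0.0568, 0.201, 0.0696, 0.0683 and 0.135; 0.0149 to 0.282 over all 15). KPNA5 was low, at 6.64 ± 0.265 (SD, n = 4) and 6.81 ± 0.692 CPM (0.04, edgeR adjusted p = 0.723). Some of these values rest on shared sequence, as 18.6% of the 75-base words of KPNA1 are shared with an antisense transcript and the strand setting is not known.

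Levels of different genes are compared per kilobase of the longest coding transcript in GENCODE release 29. On that scale KPNA2 made up 60.6% ± 0.219 (SD, n = 4) of the importin alpha total in the control libraries and 69.3% ± 0.565 in the shHNRNPC libraries. KPNA4 went from 8.94% to 6.11% of the pool and KPNA6 from 9.44% to 6.63%, although neither gene's own CPM was called lower. The summed importin alpha level was 169 CPM per kb in the control and 251 CPM per kb in the shHNRNPC libraries, 148% of control, and most of the added amount was KPNA2.

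All 11 importin beta family receptors were called, 6 upward and 5 downward. Of all genes tested 77.3% were called (38.7% rose and 38.6% fell). Groups did not overlap for 10 of the 11 (90.9%, against 70.8% of all genes tested). KPNB1, the importin beta that carries importin alpha and its cargo, stood at 409, 406, 409 and 396 CPM in the control libraries and at 566, 555, 568 and 558 CPM in the shHNRNPC libraries (0.47, SE 0.0189, edgeR adjusted p = 1.89e-32). IPO11, a receptor for ubiquitin-conjugating enzymes, went from 36.4, 36.4, 38.8 and 38.4 CPM to 54.96, 60.13, 53.73 and 59.6 CPM (0.61, SE 0.0418, edgeR adjusted p = 8.87e-21). Both sets of libraries were separated, although 22.6% of IPO11 exon bases overlap other genes (KIF2A and LRRC70). IPO7, which imports ribosomal proteins and had the highest control level of the family per kilobase of longest transcript, went from 418, 432, 436 and 425 CPM to 507, 511, 501 and 505 CPM (0.24). That order depends on the group and the length: in the shHNRNPC libraries KPNB1 was higher (91.5 against 81.7 CPM per kb), and by principal transcript TNPO1 (97.4) and IPO5 (97) exceeded IPO7 (69.1 CPM per kb) in the control.

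TNPO1 fell most in the family. This receptor, transportin 1, carries hnRNP A1 and other proteins with a PY nuclear localisation signal. It was at 293, 294, 289 and 304 CPM in control replicates 1 to 4 and at 224, 229, 231 and 220 CPM in shHNRNPC replicates 1 to 4 (-0.38, SE 0.0217, edgeR adjusted p = 6.94e-25). Its paralog TNPO2, which carries similar cargo, went the other way, from 143, 143, 146 and 140 CPM to 178, 176, 172 and 178 CPM (0.30, SE 0.0242, edgeR adjusted p = 1.01e-17). The ratio of TNPO1 to TNPO2 CPM was 2.06, 2.06, 1.98 and 2.17 in the control libraries and 1.26, 1.30, 1.34 and 1.24 in the shHNRNPC libraries, with no overlap. TNPO3, the importer of SR splicing factors, rose (0.23, edgeR adjusted p = 2.81e-13).

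IPO13, which carries cargo in both directions, went from 56.4, 54.8, 60.1 and 56.1 CPM to 44.4, 43.3, 45.3 and 43.8 CPM (-0.36, edgeR adjusted p = 7.56e-13). IPO4 (-0.31) and IPO9 (-0.23), both histone importers, fell as well, but 70.1% of IPO4 exon bases lie in other annotated genes (AL136295.4 and REC8). Of the 75-base words of IPO4, 95.1% are shared with AL136295.4 on the same strand, so its fall is uncertain. The closest pair of IPO7 and IPO8 separated slightly. IPO8 went from 170 ± 1.19 (SD, n = 4) to 162 ± 1.12 CPM (-0.07, edgeR adjusted p = 0.0043), and the IPO7 to IPO8 ratio of CPM moved from 2.51 ± 0.0614 to 3.12 ± 0.0211. IPO5, an importer of ribosomal proteins and histones, was nearly level at 325, 335, 325 and 342 CPM and at 343, 353, 332 and 346 CPM. Its groups overlapped and its rise (0.05, edgeR adjusted p = 0.0269) did not hold without control replicate 1 or 3 or shHNRNPC replicate 2 or 4 (edgeR adjusted p = 0.109, 0.0808, 0.109 and 0.0514; 0.00426 to 0.309 over all 15 alternatives).

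**Figure D2:**
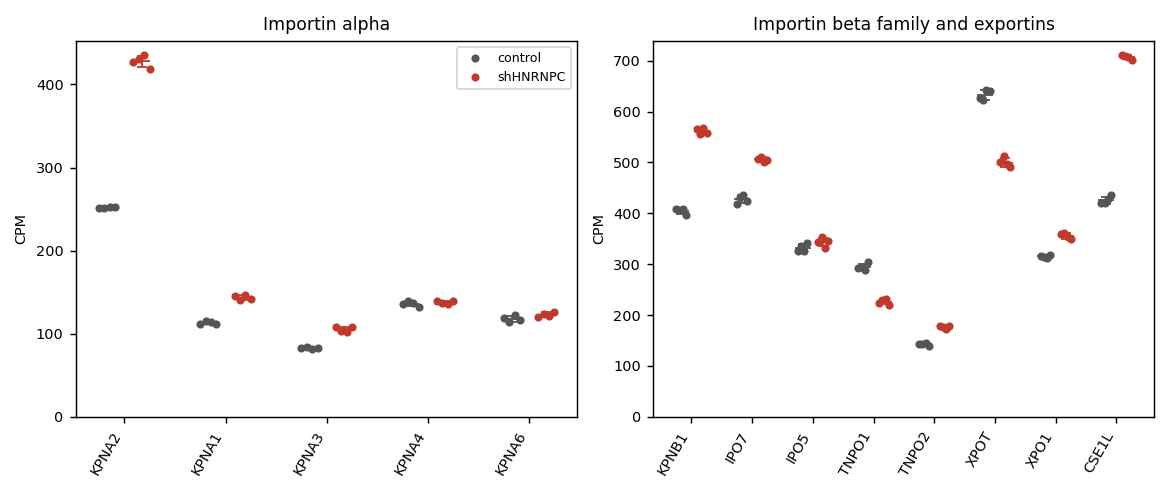
CPM (y axis, from 0) of 5 importin alpha genes (left) and 8 importin beta family and exportin genes (right) in each control (grey) and shHNRNPC (red) library, with group mean and SD. KPNA2 lies at 418 to 435 CPM after knockdown against 251 to 253 CPM in control libraries, CSE1L and KPNB1 are also higher, and XPOT and TNPO1 are lower.

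Of 7 exportins, 3 rose and 2 fell, or 71.4% called, near the 77.3% of all genes tested. XPOT, the exportin of transfer RNA, was the most abundant member by CPM in the control libraries, at 626, 623, 642 and 640 CPM, and stood at 500, 512, 497 and 490 CPM in the shHNRNPC libraries (-0.34, SE 0.0189, edgeR adjusted p = 3.31e-25). Every shHNRNPC library lay below every control library, at 79.0% of the control mean. XPO1, which exports proteins with leucine-rich signals, went from 316, 315, 311 and 318 CPM to 359, 360, 353 and 349 CPM (0.17, edgeR adjusted p = 7.31e-12), and XPO6, the exportin of profilin and actin, from 231, 219, 231 and 216 CPM to 269, 261, 257 and 270 CPM (0.24). Both were higher in every shHNRNPC library.

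XPO7 fell slightly (-0.06, edgeR adjusted p = 0.00768). XPO5, which exports precursor microRNAs, was at 119, 118, 122 and 122 CPM and at 114, 122, 119 and 118 CPM, with a 95% interval of -0.08 to 0.03 and no call (edgeR adjusted p = 0.361). XPO4 was not called either (-0.05, edgeR adjusted p = 0.0854). XPO4 was called lower without shHNRNPC replicate 1, with library totals alone and with upper-quartile factors (edgeR adjusted p = 0.0343, 0.0169 and 0.0102). Over all 15 alternatives its edgeR or DESeq2 adjusted p ran from 0.0102 to 0.247. Per kilobase, CSE1L went from 28.7 to 29.4% of the exportin total in the control libraries to 40.9% ± 0.18 (SD, n = 4) in the shHNRNPC libraries, and XPOT from 23.8% ± 0.185 to 15.8 to 16.3%. CSE1L was the most abundant exportin per kilobase in both groups. The summed level of exportins was 118% of control, and that of importin beta family receptors 109%, or 104% by principal transcript length. The exportin total went from 414 to 486 CPM per kb and CSE1L from 120 to 199 CPM per kb, so CSE1L alone covers that rise. The median log2 fold change of the 7 exportins was -0.03.

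**Figure D3:**
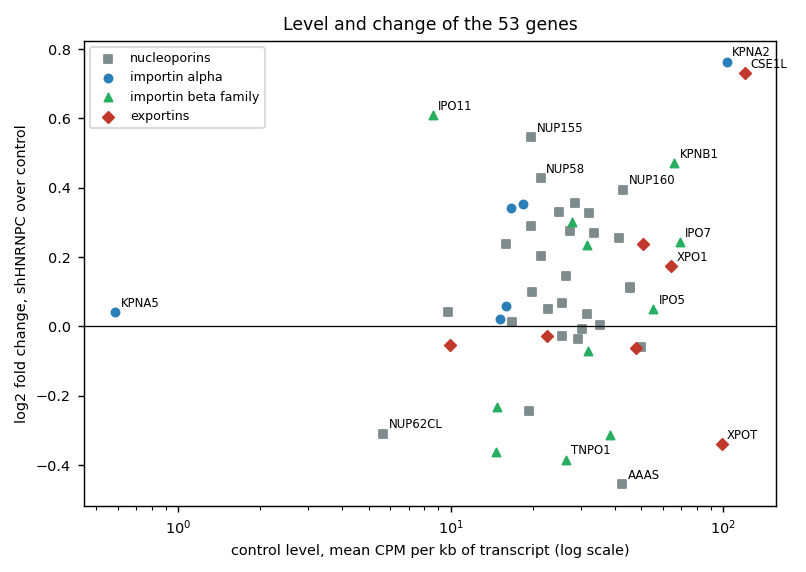
Control level (x axis, mean CPM per kb of transcript, log scale) against log2 fold change (y axis, shHNRNPC over control) for the 53 members, by class. The 3 highest levels are those of CSE1L, KPNA2 and XPOT, of which the first pair rose and XPOT fell; nucleoporins lie mostly between 10 and 50 CPM per kb.

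The 7 outer ring nucleoporins listed here (Y complex, the scaffold on both faces of the pore) were among the steadiest members. Of them 3 were higher and 0 lower (42.9% called, against 77.3% of all genes tested). NUP98, annotated as the precursor of nucleoporins 98 and 96, rose (0.36) and SEC13 fell (-0.09), but both were counted in other lists. Among the 7 listed, NUP160 was the exception in size. It stood at 226, 232, 236 and 232 CPM in the control libraries and 306, 306, 299 and 304 CPM in the shHNRNPC libraries (0.39, SE 0.021, edgeR adjusted p = 4.03e-26). NUP37 went from 60.6, 63.6, 62.2 and 63.7 CPM to 64.1, 73.4, 68.6 and 70.4 CPM (0.15), and NUP107 from 167, 161, 167 and 164 CPM to 170, 173, 176 and 171 CPM (0.07, edgeR adjusted p = 0.00823). The NUP160 groups were well apart, whereas the NUP37 and NUP107 groups were separated by a narrow gap, and the NUP107 call was lost with upper-quartile scaling or library totals alone (edgeR adjusted p = 0.106 and 0.0682).

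NUP43 was at 139, 132, 140 and 134 CPM and at 143, 136, 138 and 130 CPM (0.00, 95% interval -0.05 to 0.06). NUP133 (0.04, -0.04 to 0.12), SEH1L (-0.01, -0.07 to 0.05) and NUP85 (-0.04, -0.11 to 0.03) were not called either. Each of these 4 intervals excludes a change of 1.5-fold.

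Of 5 inner ring genes, 3 rose and 1 fell (80% called, near the 77.3% of all genes tested). NUP155 moved most of the nucleoporins, from 163, 161, 160 and 159 CPM to 233, 240, 232 and 233 CPM (0.55, SE 0.0226, edgeR adjusted p = 8.69e-32). The paralogous scaffold proteins NUP188 and NUP205 rose alike: NUP188 from 241, 229, 232 and 238 CPM to 283, 279, 279 and 280 CPM (0.25), and NUP205 from 173, 168, 171 and 174 CPM to 200, 212, 209 and 209 CPM (0.27). Their ratio was 1.37 ± 0.0173 (SD, n = 4) in the control and 1.35 ± 0.0452 in the shHNRNPC libraries, with overlap. NUP93, the linker of this ring, was at 137, 134, 140 and 145 CPM and at 142, 137, 142 and 140 CPM (0.01, 95% interval -0.04 to 0.07). NUP35, a membrane-binding subunit, fell from 30.9, 31.0, 33.7 and 30.8 CPM to 27.4, 26.6, 27.3 and 25.5 CPM (-0.24, edgeR adjusted p = 1.47e-05), without overlap.

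All 3 channel nucleoporins of the NUP62 complex, whose repeats form the permeability barrier, rose, NUP58 more than NUP62. NUP58 went from 134, 134, 141 and 134 CPM to 186, 182, 181 and 184 CPM (0.43, edgeR adjusted p = 1.18e-24). NUP62 went from 119, 113, 117 and 113 CPM to 147, 146, 144 and 142 CPM (0.33), and NUP54 from 43.7, 47.3, 46.8 and 48.5 CPM to 59.4, 55.9, 56.3 and 56.3 CPM (0.29). The ratio of NUP62 to NUP58 CPM was 0.849 ± 0.0239 (SD, n = 4) in the control and 0.791 ± 0.0153 in the shHNRNPC libraries, without overlap. All 3 genes were separated between groups, and 26.4% of the 75-base words of the NUP62 transcript are shared with ATF5, IL4I1 and AC011452.1, which overlap it. All 3 membrane nucleoporins rose too, where 38.7% of all genes tested rose. NDC1 went from 125, 127, 130 and 130 CPM to 162, 161, 163 and 158 CPM (0.33), NUP210 from 335, 319, 332 and 326 CPM to 350, 358, 347 and 361 CPM (0.11), and POM121 from 151, 149, 152 and 147 CPM to 177, 180, 166 and 166 CPM (0.20). POM121 is uncertain, because 54.8% of its 75-base words also occur in POM121C and other copies.

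On the cytoplasmic side the genes divided. AAAS encodes ALADIN, the nucleoporin mutated in triple A syndrome, and fell most of all members: it stood at 78.2, 76.7, 80.5 and 78.2 CPM in the control libraries and 58.8, 58.6, 53.8 and 57.6 CPM in the shHNRNPC libraries (-0.46, SE 0.0344, edgeR adjusted p = 6.66e-19). NUP98, a mobile repeat nucleoporin, went from 204, 196, 201 and 198 CPM to 255, 253, 255 and 260 CPM (0.36, edgeR adjusted p = 4.11e-23). Its RNA-export partner RAE1 went from 115, 123, 120 and 121 CPM to 123, 131, 132 and 133 CPM (0.11, edgeR adjusted p = 0.000203), with overlapping ranges. AAAS and NUP98 were each separated between groups, in opposite directions.

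RANBP2, the filament protein that binds RAN and sumoylated RANGAP1, went from 184, 183, 187 and 190 CPM to 225, 221, 215 and 219 CPM (0.24), but 20.3% of its 75-base words recur in the RGPD copies. NUP214 was at 245, 240, 244 and 231 CPM and at 252, 240, 244 and 250 CPM (0.04, edgeR adjusted p = 0.125), and was called higher without shHNRNPC replicate 2 (edgeR adjusted p = 0.0422; highest 0.675 over all 15 alternatives). NUP42 was not called (0.05, edgeR adjusted p = 0.329), and was called higher only without shHNRNPC replicates 1 and 4 together (edgeR adjusted p = 0.0423). NUP88, the partner of NUP214 and the highest of this side per kilobase in the control libraries (49.8 against 45.4 CPM per kb for RAE1, and 47.8 against 49.1 after knockdown), was at 150, 144, 143 and 144 CPM and at 140, 134, 140 and 142 CPM. Its small fall (-0.06, edgeR adjusted p = 0.0304) did not hold without control replicate 1 or shHNRNPC replicate 2 or 3, or with DESeq2 (adjusted p = 0.142, 0.195, 0.05 and 0.0611; 0.0019 to 0.195 over all 15 alternatives), and 15.7% of its 75-base words are shared with RPAIN on the opposite strand.

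In the nuclear basket, TPR, its main filament, went from 335, 326, 324 and 311 CPM to 395, 395, 385 and 388 CPM (0.27, edgeR adjusted p = 1.2e-18). NUP50, a cofactor of importin alpha release, went from 99.7, 108, 103 and 104 CPM to 117, 108, 111 and 110 CPM (0.10, edgeR adjusted p = 0.0017), and its groups overlapped. NUP153, which anchors the basket, was at 155, 151, 163 and 149 CPM and at 151, 152, 150 and 152 CPM (-0.03, 95% interval -0.08 to 0.02). NUP153 was called lower only with upper-quartile factors (edgeR adjusted p = 0.0424). NUP62CL, a NUP62-like gene on chromosome X, was low and fell from 9.75, 10.04, 10.06 and 9.75 CPM to 8.10, 7.34, 8.96 and 7.54 CPM (-0.31, edgeR adjusted p = 0.00162). Summed per kilobase, nucleoporins were at 810 ± 5.98 CPM per kb (SD, n = 4) in the control and 890 ± 2.05 CPM per kb in the shHNRNPC libraries, 110% of control, and transport receptors at 120% (116% by principal transcript length). Receptors went from 968 to 1158 CPM per kb, and most of the added amount was KPNA2 (103 to 174) and CSE1L (120 to 199). The median log2 fold change was 0.05 for the 24 receptors and 0.11 for the 29 nucleoporins. In bulk RNA a change in the share of cells of a kind and a change in RNA per cell cannot be told apart.

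**Figure D4:**
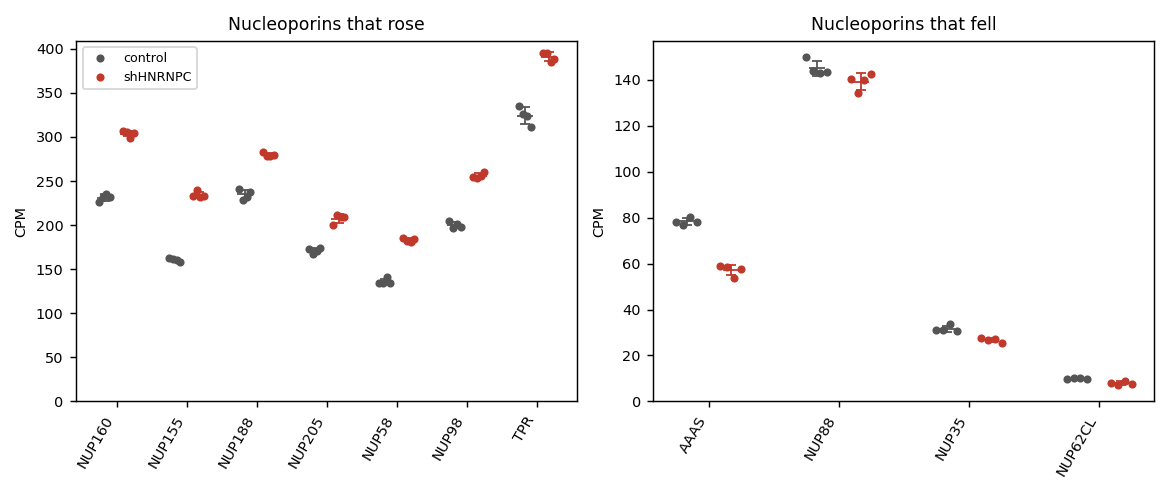
CPM (y axis, from 0) of 7 nucleoporins that rose (left) and of AAAS, NUP88, NUP35 and NUP62CL, which fell (right), in each control (grey) and shHNRNPC (red) library, with group mean and SD. All 7 on the left are separated between groups, and AAAS drops from 76.7 to 80.5 CPM to 53.8 to 58.8 CPM.

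An earlier search of these same data singled out the 7-base word GAATGAT in 3' UTRs as more frequent among genes that fell, so it is no independent evidence here. It lies in annotated 3' UTRs of 12 of 52 members with such a region of at least 50 bases: IPO5, IPO9, KPNA5, KPNA6, KPNB1, NUP133, NUP42, NUP50, NUP58, TNPO1, TPR and XPOT. Of these 12, 6 rose and 3 fell, with a median of 0.05, and of the 40 members without it 24 rose and 7 fell, with a median of 0.16. Over all tested genes 54.2% of 1527 carriers and 36.3% of 10295 others fell. A gene counted as a carrier if the word lay in the 3' UTR of any annotated coding transcript, and UTR length was not taken into account. Sites are shown for 2 members with the word that fell and 2 that rose, since both occur, with the word in capitals on the gene's strand (GENCODE release 29, GRCh38). They lie at chr5:72910685-72910691 (plus), chr5:72915755-72915761 (plus), chr12:64451065-64451071 (plus), chr17:47684487-47684493 (plus) and chr13:25341042-25341048 (plus). The second TNPO1 site lies past the RefSeq end of that gene, at 72914388.
TNPO1, first site: ctaaaagtgttGAATGATacagccattgc
TNPO1, second site: tgattctttaaGAATGATtggaaaagtgg
XPOT: atgtgttgttaGAATGATtccatcactta
KPNB1: tttgagagacaGAATGATgtactaaccat
NUP58: cagtgcttgtaGAATGATgagcttagagg

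Other genes of nuclear transport were counted by list. Of the RAN cycle, which gives transport its direction, 6 of 7 genes were called higher and 0 lower, with a median of 0.23. That is 85.7% called higher, against 38.7% of all genes tested. RCC1, the chromatin-bound exchange factor that loads RAN with GTP, went from 99.9, 103, 95.9 and 103 CPM to 173, 174, 183 and 179 CPM (0.82, SE 0.0266, edgeR adjusted p = 1.71e-37). RANBP1, a cofactor of GTP hydrolysis, went from 171, 170, 164 and 164 CPM to 279, 273, 284 and 277 CPM (0.74), and RAN itself from 451, 443, 436 and 447 CPM to 593, 597, 610 and 616 CPM (0.44). RANGAP1, the cytoplasmic GTPase activator, rose less (0.23), and the RCC1 to RANGAP1 ratio of CPM went from 0.45 ± 0.0221 (SD, n = 4) to 0.674 ± 0.0239 without overlap. Of the 75-base words of RANBP1, 36.0% are shared with other transcripts, mainly TRMT2A on the opposite strand.

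Messenger RNA export genes divided, with 10 of 24 higher (41.7%) and 13 lower (54.2%), and a median of -0.09. Genes at large divided as well, as 38.7% of all genes tested rose and 38.6% fell. ALYREF, an adaptor of the TREX complex, went from 81.1, 86.7, 83.3 and 86.2 CPM to 136, 127, 140 and 138 CPM (0.68, edgeR adjusted p = 3.34e-30). THOC6 (-0.59), CHTOP (-0.49) and NXT1 (-0.42), a TREX subunit, a TREX-associated protein and the partner of the export receptor NXF1, fell. All 5 cargo adaptors were called higher: PHAX (0.30), which brings small nuclear RNA to XPO1, NMD3 (0.27), which does so for the large ribosomal subunit, SNUPN (0.15), HIKESHI (0.12) and RIOK2 (0.14), whose call was lost without control replicate 2 (edgeR adjusted p = 0.0916, the highest of all 15 alternatives).

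Of 15 lamina and envelope genes, 10 were called higher (66.7%) and 3 lower (20%), with a median of 0.15. Of all genes tested, 38.7% rose and 38.6% fell. LMNB1, a B-type lamin, went from 98.6, 94.5, 99.4 and 89.9 CPM to 184, 174, 185 and 182 CPM (0.92, edgeR adjusted p = 3.27e-37), LBR, the lamin B receptor, rose (0.38) and TOR1A fell (-0.42). SYNE1, at 1.98 and 1.37 CPM, had overlapping groups and a call (-0.53, edgeR adjusted p = 0.0371) that did not hold without control replicate 1, 3 or 4 or shHNRNPC replicate 1 or 2 (edgeR adjusted p = 0.0612, 0.0532, 0.0545, 0.261 and 0.0551; 0.00626 to 0.261 over all 15 alternatives). Its log2 fold change was -0.28 without shHNRNPC replicate 1, at 0.53 CPM, and -0.74 without shHNRNPC replicate 4. Of the 7 tested pore proteins and receptors outside the member rule, 2 rose (28.6%) and 3 fell (42.9%). RANBP6, the intronless relative of IPO5, went from 408, 413, 425 and 420 CPM to 333, 342, 342 and 349 CPM (-0.29), SENP2, a SUMO protease bound to the pore, fell (-0.15), MAD1L1, a checkpoint protein bound to TPR, rose (0.30), and POM121C rose (0.18) with the same uncertainty as POM121.

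**Figure D5:**
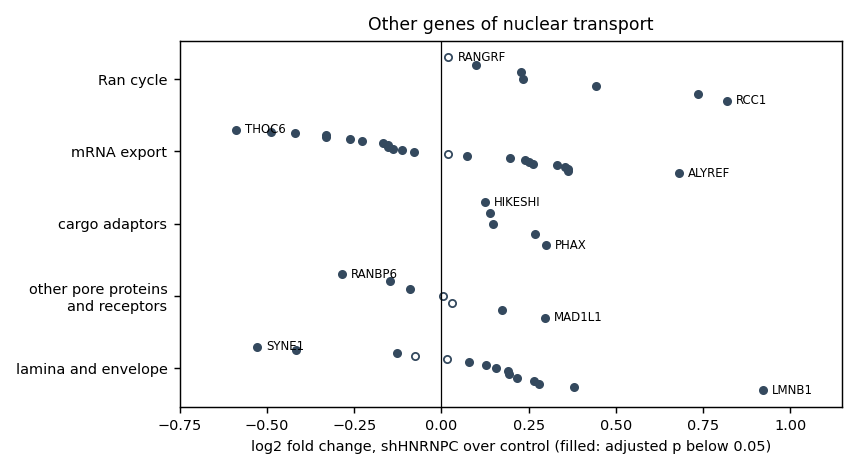
Log2 fold change (x axis, shHNRNPC over control) of genes in 5 lists of nuclear transport and envelope genes (y axis), 1 point per tested gene, filled where the adjusted p was below 0.05; the lowest and highest gene of each list are named. The RAN cycle lies at or above 0.02, the cargo adaptors at or above 0.12, and mRNA export genes spread from -0.59 to 0.68.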

How the data were processed

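Control and shHNRNPC libraries (4 of each, by genotype label) were made from poly(A) RNA of KYSE150. The authors deposited raw counts of reads per gene. Paired-end reads had been cleaned with fastp, per the series design text, and the submitters' processing notes name the hg38 genome. Not given in the sources used here: aligner, counting program, annotation and strandedness; antisense partners may therefore share reads.

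Counts were filtered with filterByExpr (minimum count 10, minimum total 15), scaled by TMM and tested with edgeR 4.0.16 in R 4.3.3 (robust glmQLFit, glmQLFTest on group), with Benjamini-Hochberg adjustment over 12001 genes. SEs were derived from each fold change and its F statistic, and intervals are 95%. The smallest p an exact permutation test of 4 against 4 can give is 0.0286. The fit was tested on simulated data. Levels per kilobase used the longest coding basic transcript of GENCODE release 29, which is well above the principal one for TNPO1 (11183 against 3028 bases), NUP93, NUP58, SEH1L, IPO5 and POM121, so their levels depend on this choice. Shared sequence was counted in 75-base words of these transcripts.

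Members and lists were chosen with earlier results of these data known. Per-sample values are given, per role, for up to 4 called members with the largest change, the most abundant per length and the least changed, and in each other list up to 4 called genes with the largest change are named; IPO5 and TNPO2, the promoters, the sites and the paralog ratios were chosen after values were seen. Alternatives used DESeq2 1.42.0, other scalings and filters, left-out libraries and a replicate block.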

Additional observations from a re-analysis of the deposited data

Results flagged for a closer look

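In 148 groups of 4 libraries (74 genes in each of the control and shHNRNPC groups) 10 values stood far from the other 3, where chance gives about 1 in 20. Among members, NUP35 was at 33.7 CPM in control replicate 3 against 30.8 to 31.0 CPM in the others, NUP58 at 141 CPM in the same library against 134 CPM, and XPO4 at 101 CPM there against 97.5 to 97.9 CPM. NUP88 was at 150 CPM in control replicate 1 against 143 to 144 CPM. In the knockdown group, NUP54 was at 59.4 CPM in shHNRNPC replicate 1 against 55.9 to 56.3 CPM, and NUP133 at 53.6 CPM there against 52.0 to 52.2 CPM. NUP155 was at 240.0 CPM in shHNRNPC replicate 2 against 232 to 233 CPM, and SEH1L at 108 CPM in shHNRNPC replicate 4 against 104 CPM. Outside the members, control replicate 2 was low for SNUPN, at 22.8 CPM against 23.5 to 23.6 CPM, and for SYNE1, at 1.93 CPM against at most 2.01 CPM.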

How the results depend on the processing

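Over the 15 alternatives 27 to 30 members rose and 9 to 13 fell; without one library each it was 28 to 30 and 10 to 12. Of the 41 members called, 35 were called in every alternative, and 4 of the 12 others in at least 1. Rises of at least 1.5-fold numbered 2 to 3, IPO11 being near the threshold. The members' median log2 fold change was 0.073 with upper-quartile factors, which lower all fold changes (median shift -0.03 over all genes), and 0.08 to 0.107 without one library each. None of the 41 called members changed sign in any alternative, while 6 of the 12 not called did (KPNA4, KPNA5, NUP43, NUP93, SEH1L and XPO5). Deviations of same-numbered libraries correlated at -0.055 to 0.017 over 12001 genes and at -0.095 to 0.235 over the 53 members. These deviations are small (common biological coefficient of variation 3.02%), so the values show no pairing by replicate number but cannot exclude one. With the replicate block 29 members rose and 11 fell, and KPNA6 was not called (edgeR adjusted p = 0.0595). Without shHNRNPC replicates 1 and 4 together, IPO8 and XPO7 lost their calls (edgeR adjusted p = 0.0555 and 0.0757). The lowest members, KPNA5 and NUP62CL, have the widest intervals.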
